A study of Mus musculus with 12 samples.

Results

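Cells that divide copy their DNA and then part it, and the genes studied here encode the machinery of those steps. They are 2 cyclins of the G1 phase, 15 S-phase genes and 28 genes of G2 and mitosis. These 45 genes of DNA replication and mitosis were listed by name, with earlier results of these arrays known. They were followed on Illumina MouseWG-6 BeadChips hybridised with kidney RNA of mice labelled C57BL/6 and aged 15 weeks, from lines that the study's methods describe as backcrossed for some generations, with 4 Hif1a/Fh1 KO, 4 Fh1 KO and 4 Control mice, 1 array each. Fh1 encodes fumarate hydratase of the tricarboxylic acid cycle and Hif1a encodes a hypoxia-inducible transcription factor. In the knockout mice Cre recombinase driven by the kidney-specific cadherin promoter (Ksp-Cre) removed floxed alleles of Fh1, or of Fh1 and Hif-1α, in tubule cells only, so other cells of the kidney kept both genes. Control mice were littermates with floxed alleles but no Ksp-Cre, or with a wild-type allele and Ksp-Cre, and the labels do not say which control is which. The labels call the RNA source cysts on all arrays, controls included, while the study describes kidneys of early cystic disease. Of the 45 genes, 34 had at least 1 named probe among the 23863 deposited (54 probes, set among 12344 genes with a named probe): both G1 cyclins, 13 of the S-phase genes and 19 of the mitotic genes. The 11 others were Mcm3, Hells, Ccnb1, Ccnb2, Cks2, Bub1, Cenpe, Kif11, Kif20a, Racgap1 and Mki67, and the sources do not state how probes were picked for deposit, so every count below is of the 34 measured genes. A gene with several probes was represented by the brightest.

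In a dividing cell, D-type and E-type cyclins carry the cell through G1, after which transcription factors of the E2F family turn on the genes of DNA synthesis. In S phase the Mcm2 to Mcm7 helicase opens the double helix, Pcna clamps the polymerases to it, and ribonucleotide reductase and thymidylate synthase supply the nucleotides. The mitotic genes peak later. They are regulated by the MuvB and DREAM complexes, which bind a promoter element called CHR (cell cycle genes homology region). NF-Y, which binds CCAAT boxes, regulates them as well. Most tubule cells of an adult kidney do not divide, and they can re-enter the cycle after injury or when cysts grow.

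The arrays were comparable in level but not free of structure. The 75th percentile of log2 signal lay between 11.06 and 11.12 on all arrays, and the 1st percentile between 7.45 and 7.54 on replicates 1 and 2 but between 7.34 and 7.42 on replicates 3 and 4, a split of the arrays that the labels do not account for. Xist, the RNA of the inactive X chromosome, read 12.07 to 13.49 on replicates 2 and 3 of Hif1a/Fh1 KO, 1 and 3 of Fh1 KO and 4 of Control, and at most 7.76 on the others, while the labels give no sex. The brightest Fh1 probe averaged 13.85 ± 0.17 in Hif1a/Fh1 KO, 14.12 ± 0.12 in Fh1 KO and 14.25 ± 0.02 in Control kidneys (SD, n = 4 each), with log2 fold changes of -0.40 in Hif1a/Fh1 KO (adjusted p = 0.014 from limma) and -0.14 in Fh1 KO (adjusted p = 0.45) against Control. The deletion was limited to some of the cells, and where the probe lies relative to the deleted exons was not determined. The brightest Hif1a probe was higher in Hif1a/Fh1 KO than in Control kidneys, by 0.85 (adjusted p = 0.016), and a second, dim probe averaged 6.98 ± 0.50 in Hif1a/Fh1 KO, 8.14 ± 0.48 in Fh1 KO and 7.17 ± 0.13 in Control kidneys, and its position relative to the deleted part is likewise unknown. By Q-PCR on mRNA of these kidneys, the paper reports lower Fh1 in both knockout groups and lower Hif-1α in Hif1a/Fh1 KO kidneys than in controls.

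Most of the 34 measured genes were higher in Hif1a/Fh1 KO than in Control kidneys. Of the 34, 23 were higher and 0 lower at an adjusted p under 0.05 (limma, Benjamini-Hochberg adjustment over all probes), where 10.7% of all 12344 genes were higher and 8.64% lower. In Fh1 KO kidneys 6 were higher and 0 lower than in Control kidneys, against 3.9% and 2.26% of all genes. The list was put together with earlier results of these arrays known, so these counts are no measure of such genes at large. Of other replication and mitotic genes, 8 of 43 and 12 of 41 were higher in Hif1a/Fh1 KO kidneys. The median log2 fold change of the 34 genes was 0.567 in Hif1a/Fh1 KO and 0.292 in Fh1 KO kidneys. Over all genes it was -0.027 in Hif1a/Fh1 KO and -0.035 in Fh1 KO kidneys. The 6 genes called in Fh1 KO kidneys, namely Uhrf1, Chaf1b, Gins2, Anln, Prc1 and Cdk1, were all among the 23, and both comparisons used the same 4 Control arrays. In whole tissue, more dividing cells and more RNA per dividing cell cannot be told apart.

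**Figure D1:**
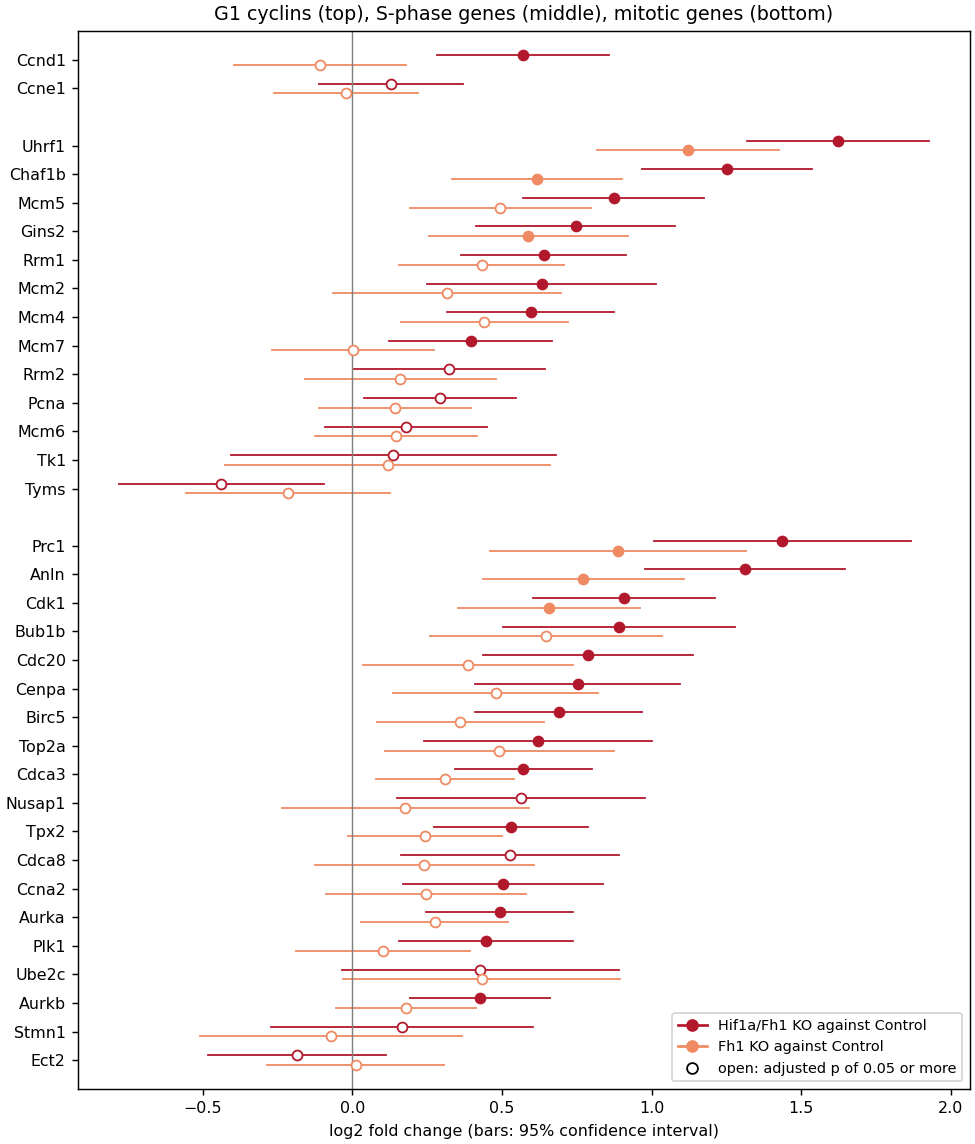
Log2 fold changes of the 34 measured genes against Control kidneys (x axis, with 95% confidence intervals from limma) for Hif1a/Fh1 KO (dark red) and Fh1 KO (orange), in 3 blocks of G1 cyclins, S-phase genes and mitotic genes; filled points have an adjusted p under 0.05. The filled points are 23 in Hif1a/Fh1 KO and 6 in Fh1 KO, all to the right of 0.

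The promoters of these genes carried the elements that the background names, as letters in the sequence. The RefSeq windows used here (build GRCm38.p6) run from 250 bases before to 50 bases after a start site, and 37 of the 45 genes had at least 1, with 41 windows in all. A CCAAT box (CCAAT on either strand) stood in 22 of 25 windows of mitotic genes (88%) and in 11 of 15 windows of S-phase genes (73.3%), where 37.4% of all 32851 windows hold 1. The CHR letters (TTTGAA on either strand) stood in 19 windows of mitotic genes (76%) and 1 of S-phase genes (6.67%), and in 17.9% of all windows. E2F letters (TTTGGCGC, TTTCCCGC, TTTGCCGC or TTTCGCGC, on either strand) were in 6 of the 15 S-phase windows (40%), in 1 of the 25 mitotic windows (4%) and in 2.26% of all windows. Uhrf1, Mcm7, Ect2 and Prc1 have more than 1 window, and those of Ect2 and Prc1 overlap. A match is a string of letters, not a measured binding site. The 200 bases before the start site are given for 2 S-phase and 3 mitotic genes that were higher in Hif1a/Fh1 KO kidneys. They are examples, with CCAAT, CHR and E2F letters in capitals, and other called genes differed from them. The Mcm2 window held a CHR and no E2F letters, the other Uhrf1 window no E2F letters and the Anln window no CCAAT box.
Uhrf1, chr17:56304113-56304312, plus strand: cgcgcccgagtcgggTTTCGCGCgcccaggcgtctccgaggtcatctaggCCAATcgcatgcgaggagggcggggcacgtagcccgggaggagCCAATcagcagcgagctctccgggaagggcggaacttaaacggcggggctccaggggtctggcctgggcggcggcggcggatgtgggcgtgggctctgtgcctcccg
Mcm5, chr8:75109309-75109508, plus strand: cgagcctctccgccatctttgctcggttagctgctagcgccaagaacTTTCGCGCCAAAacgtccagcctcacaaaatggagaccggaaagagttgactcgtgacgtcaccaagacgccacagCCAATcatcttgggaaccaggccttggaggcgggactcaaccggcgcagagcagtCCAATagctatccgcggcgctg
Cdk1, chr10:69352913-69353112, minus strand: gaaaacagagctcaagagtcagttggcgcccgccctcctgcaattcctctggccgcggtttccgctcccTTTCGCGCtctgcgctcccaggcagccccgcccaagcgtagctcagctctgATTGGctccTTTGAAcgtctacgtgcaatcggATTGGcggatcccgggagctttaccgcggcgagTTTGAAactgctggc
Prc1, chr7:80294276-80294475, plus strand: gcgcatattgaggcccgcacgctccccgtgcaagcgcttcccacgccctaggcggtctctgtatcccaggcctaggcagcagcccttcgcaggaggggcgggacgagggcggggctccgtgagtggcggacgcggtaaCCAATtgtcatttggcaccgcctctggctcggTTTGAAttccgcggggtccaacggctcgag
Top2a, chr11:99024190-99024389, minus strand: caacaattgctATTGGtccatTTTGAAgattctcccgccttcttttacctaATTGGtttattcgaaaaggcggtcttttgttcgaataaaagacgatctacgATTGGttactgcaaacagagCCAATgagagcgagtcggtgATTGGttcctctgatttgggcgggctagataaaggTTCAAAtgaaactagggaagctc
The Uhrf1 and Mcm5 stretches hold E2F letters and CCAAT boxes and no CHR. The Prc1 and Top2a stretches hold CCAAT boxes with a CHR nearer the start site, and the Cdk1 stretch holds all 3 elements. Among measured genes, the CHR and CCAAT letters occurred together in 11 of 20 windows of genes called higher in Hif1a/Fh1 KO kidneys (55%). For genes not called they did so in 4 of 11 windows (36.4%), among them both overlapping windows of Ect2. Both shares mix the phases: over all listed genes the letters occurred together in 72% of mitotic and 6.67% of S-phase windows. The difference was not tested, nor was it split by phase.

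Among the S-phase genes, Uhrf1 had the largest change of the 34 genes in both knockout groups. Its protein reads hemimethylated DNA behind the replication fork and brings the maintenance methyltransferase there. Uhrf1 read 10.75, 10.58, 10.38 and 10.25 in Hif1a/Fh1 KO kidneys, 10.19, 9.84, 10.16 and 9.75 in Fh1 KO kidneys and 8.70, 9.02, 8.87 and 8.87 in Control kidneys. The 3 groups did not overlap, and the lowest knockout array, at 9.75, was above the highest Control array, at 9.02. Against Control the log2 fold change was 1.62 in Hif1a/Fh1 KO (standard error, SE, 0.14, 3.08-fold, adjusted p = 2.5e-05 from limma) and 1.12 in Fh1 KO kidneys (standard error 0.14, 2.17-fold, adjusted p = 0.001). Chaf1b, a subunit of the chromatin assembly factor that loads histones onto new DNA, read 9.39, 9.65, 9.17 and 9.41 in Hif1a/Fh1 KO kidneys, 9.01, 8.66, 8.78 and 8.63 in Fh1 KO kidneys and 7.98, 8.07, 8.23 and 8.34 in Control kidneys. Its groups too were fully apart, with log2 fold changes of 1.25 in Hif1a/Fh1 KO (adjusted p = 8.9e-05) and 0.62 in Fh1 KO kidneys (adjusted p = 0.021). Gins2, part of the GINS complex of the replicative helicase, read 9.15, 9.31, 8.81 and 9.14 in Hif1a/Fh1 KO kidneys, 9.29, 8.90, 8.88 and 8.72 in Fh1 KO kidneys and 8.49, 8.46, 8.05 and 8.44 in Control kidneys. Both knockout groups lay above all Control arrays but overlapped each other, with changes of 0.75 in Hif1a/Fh1 KO (adjusted p = 0.0065) and 0.59 in Fh1 KO kidneys (adjusted p = 0.047). A second Gins2 probe of similar brightness passed in Hif1a/Fh1 KO kidneys (0.83, adjusted p = 0.0093 from limma) but not in Fh1 KO kidneys (0.55, adjusted p = 0.11). The dimmest Gins2 probe gave 0.37 in Hif1a/Fh1 KO and 0.19 in Fh1 KO kidneys and passed in neither.

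The helicase subunits differed in size of change and in whether they passed the test. Mcm5 read 10.35, 10.29, 10.10 and 10.37 in Hif1a/Fh1 KO kidneys, 10.20, 9.67, 9.95 and 9.77 in Fh1 KO kidneys and 9.11, 9.43, 9.61 and 9.47 in Control kidneys. Its change was 0.87 in Hif1a/Fh1 KO kidneys (SE 0.14, adjusted p = 0.0014 from limma) and 0.49 in Fh1 KO kidneys (adjusted p = 0.063), and both groups lay above all Control arrays. Mcm4 read 11.64, 11.42, 11.45 and 11.41 in Hif1a/Fh1 KO kidneys, 11.58, 11.24, 11.34 and 11.13 in Fh1 KO kidneys and 10.58, 10.91, 10.94 and 11.10 in Control kidneys. Here too no knockout array fell among the Control arrays, with changes of 0.60 (adjusted p = 0.0085) in Hif1a/Fh1 KO and 0.44 (adjusted p = 0.071) in Fh1 KO kidneys. Mcm2 read 9.92, 9.54, 9.28 and 9.14 in Hif1a/Fh1 KO kidneys, 9.44, 9.00, 9.19 and 8.99 in Fh1 KO kidneys and 8.93, 8.90, 8.99 and 8.52 in Control kidneys. The Hif1a/Fh1 KO arrays were spread from 9.14 to 9.92 and sat just above Control, for a change of 0.63 (adjusted p = 0.029), and the Fh1 KO value was 0.32 (adjusted p = 0.33). Mcm7 was 0.39 higher in Hif1a/Fh1 KO kidneys (adjusted p = 0.049) by its brighter probe, while its second probe gave -0.07, and Mcm6 gave 0.18 in Hif1a/Fh1 KO and 0.14 in Fh1 KO kidneys and passed in neither.

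Genes of nucleotide supply were mixed. Rrm1, the large subunit of ribonucleotide reductase, read 9.91, 9.97, 10.25 and 10.01 in Hif1a/Fh1 KO kidneys, 10.01, 9.65, 9.77 and 9.89 in Fh1 KO kidneys and 9.11, 9.46, 9.55 and 9.46 in Control kidneys. All knockout arrays exceeded the Control arrays, with a change of 0.64 in Hif1a/Fh1 KO (adjusted p = 0.0053 from limma) and 0.43 in Fh1 KO kidneys (adjusted p = 0.072), and a second Rrm1 probe gave 0.44 in Hif1a/Fh1 KO (adjusted p = 0.051). The small subunit Rrm2 gave 0.32 in Hif1a/Fh1 KO and 0.16 in Fh1 KO kidneys, with no call. Tk1, the thymidine kinase of S phase, gave 0.14 in Hif1a/Fh1 KO and 0.12 in Fh1 KO kidneys, also with no call, and -0.14 in Hif1a/Fh1 KO and -0.16 in Fh1 KO kidneys without Control replicate 4, which stood apart from the other Control arrays. Tyms, thymidylate synthase, was the S-phase gene with values below 0, at -0.44 in Hif1a/Fh1 KO (adjusted p = 0.077) and -0.22 in Fh1 KO kidneys (adjusted p = 0.48), and its second probe gave -0.44 in Hif1a/Fh1 KO. Pcna, the sliding clamp, read 11.77, 11.80, 11.62 and 12.03 in Hif1a/Fh1 KO kidneys, 11.82, 11.71, 11.57 and 11.51 in Fh1 KO kidneys and 11.34, 11.60, 11.40 and 11.70 in Control kidneys. The groups overlapped, and its change of 0.29 in Hif1a/Fh1 KO kidneys (95% confidence interval 0.04 to 0.55) had an adjusted p of 0.11. In all, 8 of the 13 S-phase genes were higher in Hif1a/Fh1 KO and 3 in Fh1 KO kidneys, with medians of 0.596 in Hif1a/Fh1 KO and 0.315 in Fh1 KO kidneys.

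**Figure D2:**
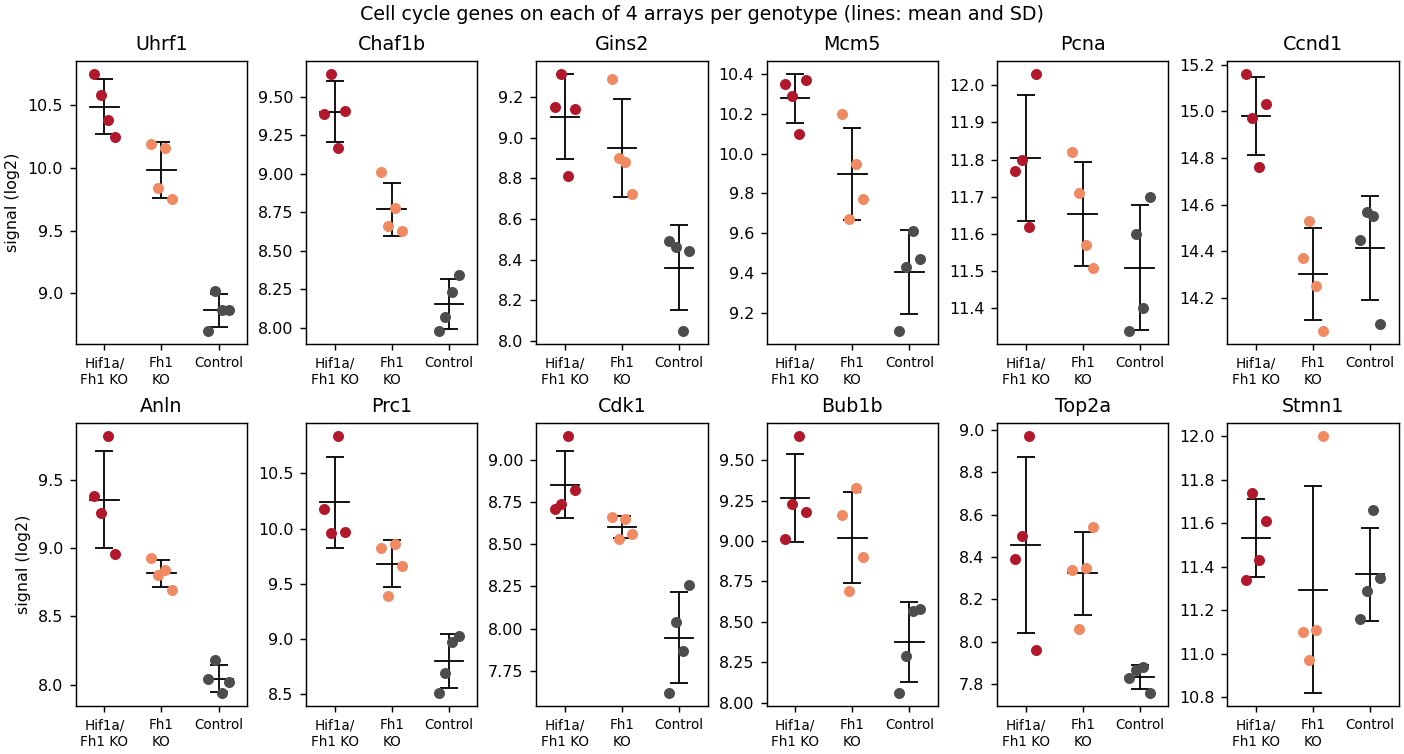
Log2 signal (y axis, a scale of its own in each panel) of 12 of the genes on each array of Hif1a/Fh1 KO, Fh1 KO and Control kidneys, with group means and SD (n = 4). The groups are fully apart for Uhrf1, Chaf1b, Anln, Prc1 and Cdk1, while Pcna and Stmn1 overlap throughout and Ccnd1 is high in Hif1a/Fh1 KO kidneys alone.

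Of the mitotic genes, Prc1 and Anln had the largest changes. Prc1 bundles the antiparallel microtubules of the spindle midzone, and read 10.18, 9.96, 10.84 and 9.97 in Hif1a/Fh1 KO kidneys, 9.82, 9.39, 9.86 and 9.66 in Fh1 KO kidneys and 8.51, 8.69, 8.97 and 9.03 in Control kidneys. Anln, the actin-binding scaffold anillin of the contractile ring, read 9.38, 9.26, 9.82 and 8.96 in Hif1a/Fh1 KO kidneys, 8.93, 8.80, 8.84 and 8.69 in Fh1 KO kidneys and 8.04, 8.18, 7.94 and 8.02 in Control kidneys. For both genes all Hif1a/Fh1 KO arrays lay above all Fh1 KO arrays, and these above all Control arrays. Prc1 changed by 1.44 in Hif1a/Fh1 KO (2.71-fold, adjusted p = 0.00057 from limma) and 0.89 in Fh1 KO kidneys (1.85-fold, adjusted p = 0.025), and Anln by 1.31 in Hif1a/Fh1 KO (adjusted p = 0.00021) and 0.77 in Fh1 KO kidneys (adjusted p = 0.015). Cdk1, the kinase that drives entry into mitosis, read 8.71, 8.74, 9.14 and 8.82 in Hif1a/Fh1 KO kidneys, 8.66, 8.53, 8.65 and 8.56 in Fh1 KO kidneys and 7.62, 8.04, 7.87 and 8.26 in Control kidneys. Its groups did not overlap either, with changes of 0.91 in Hif1a/Fh1 KO (adjusted p = 0.0011) and 0.66 in Fh1 KO kidneys (adjusted p = 0.021), and the 4 Fh1 KO arrays ran from 8.53 to 8.66.

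Bub1b, Cenpa, Cdc20, Birc5 and Cdca3 were also higher in Hif1a/Fh1 KO kidneys. Bub1b, the checkpoint protein BubR1, read 9.01, 9.23, 9.65 and 9.18 in Hif1a/Fh1 KO kidneys, 9.16, 8.69, 9.33 and 8.90 in Fh1 KO kidneys and 8.06, 8.29, 8.57 and 8.58 in Control kidneys. All knockout arrays were above Control, and the change was 0.89 in Hif1a/Fh1 KO (adjusted p = 0.0056 from limma) and 0.65 in Fh1 KO kidneys (adjusted p = 0.058), while a dimmer second probe gave 0.12 in Hif1a/Fh1 KO and -0.02 in Fh1 KO kidneys. Cenpa, the histone H3 variant of the centromere, read 10.59, 10.66, 11.00 and 10.34 in Hif1a/Fh1 KO kidneys, 10.43, 10.22, 10.50 and 10.35 in Fh1 KO kidneys and 9.78, 9.70, 9.80 and 10.30 in Control kidneys. Control replicate 4 reached the level of the lower Fh1 KO arrays, and the change was 0.75 in Hif1a/Fh1 KO (adjusted p = 0.0073) and 0.48 in Fh1 KO kidneys (adjusted p = 0.1). Cdc20, which activates the anaphase-promoting complex, read 9.56, 9.76, 9.93 and 9.23 in Hif1a/Fh1 KO kidneys, 9.32, 9.22, 9.25 and 9.10 in Fh1 KO kidneys and 8.47, 8.83, 8.94 and 9.09 in Control kidneys. Its change was 0.79 in Hif1a/Fh1 KO kidneys (adjusted p = 0.0065) and 0.39 in Fh1 KO kidneys (adjusted p = 0.19). Of its 3 other probes 1 passed in Hif1a/Fh1 KO (0.63) and the others gave 0.25 and 0.08. Birc5, or survivin, a member of the chromosomal passenger complex, read 8.99, 8.91, 9.14 and 8.69 in Hif1a/Fh1 KO kidneys, 8.74, 8.41, 8.72 and 8.55 in Fh1 KO kidneys and 8.17, 8.24, 8.48 and 8.08 in Control kidneys. Its change of 0.69 in Hif1a/Fh1 KO kidneys (adjusted p = 0.0038) was matched by 0.67 and 0.54 at its 2 other probes, which passed as well. Cdca3, which helps the degradation of Wee1 before mitosis, read 9.47, 9.62, 9.72 and 9.64 in Hif1a/Fh1 KO kidneys, 9.31, 9.31, 9.39 and 9.39 in Fh1 KO kidneys and 8.98, 8.82, 9.17 and 9.20 in Control kidneys. The 3 groups were apart although the change was only 0.57 in Hif1a/Fh1 KO (adjusted p = 0.0036) and 0.31 in Fh1 KO kidneys (adjusted p = 0.11).

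The remaining mitotic genes had log2 fold changes of 0.62 or less in Hif1a/Fh1 KO kidneys. Top2a, the topoisomerase that untangles sister chromatids, read 8.39, 8.50, 8.97 and 7.96 in Hif1a/Fh1 KO kidneys, 8.34, 8.06, 8.35 and 8.54 in Fh1 KO kidneys and 7.83, 7.87, 7.88 and 7.76 in Control kidneys. Hif1a/Fh1 KO replicate 4 was the lowest knockout array, at 7.96, just above the Control arrays, and the changes were 0.62 in Hif1a/Fh1 KO (adjusted p = 0.032 from limma) and 0.49 in Fh1 KO kidneys (adjusted p = 0.13). Tpx2 (0.53), Ccna2 (0.50), Aurka (0.49), Plk1 (0.45) and Aurkb (0.43), which encode a spindle assembly factor, cyclin A2 and 3 mitotic kinases, also passed in Hif1a/Fh1 KO kidneys, and Ccna2 and Plk1 overlapped Control there. Nusap1 (0.56, adjusted p = 0.062), Cdca8 (0.53, adjusted p = 0.051) and Ube2c (0.43, adjusted p = 0.19) did not pass. With replicates 1 and 2 set against 3 and 4 as a block, Nusap1 (adjusted p = 0.049) and Cdca8 (adjusted p = 0.046) passed. Ect2, the exchange factor that switches on RhoA at the furrow, had -0.18 in Hif1a/Fh1 KO and 0.01 in Fh1 KO kidneys, and Stmn1, the microtubule destabiliser stathmin, 0.17 in Hif1a/Fh1 KO and -0.07 in Fh1 KO kidneys, also without a call. In all, 14 of the 19 mitotic genes were higher in Hif1a/Fh1 KO and 3 in Fh1 KO kidneys, with medians of 0.564 in Hif1a/Fh1 KO and 0.31 in Fh1 KO kidneys. Many of these signals were dim: in Control kidneys 12 of the 19 mitotic genes, but 2 of the 13 S-phase genes, lay below the 25th percentile of all probes. Tpx2 lay at percentile 0.6, Aurkb at 2.3 and Ccna2 at 2.4. No detection p-value could be matched to an array, so signal above background is unknown for these genes.

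Of the G1 cyclins, 1 was called in Hif1a/Fh1 KO kidneys and none in Fh1 KO kidneys. Ccnd1, cyclin D1, the partner of Cdk4 and Cdk6, read 15.16, 14.97, 14.76 and 15.03 in Hif1a/Fh1 KO kidneys, 14.37, 14.53, 14.25 and 14.06 in Fh1 KO kidneys and 14.45, 14.57, 14.55 and 14.09 in Control kidneys. Hif1a/Fh1 KO arrays were above all others while Fh1 KO and Control arrays overlapped. The change was 0.57 in Hif1a/Fh1 KO (SE 0.13, adjusted p = 0.012 from limma) and -0.11 in Fh1 KO kidneys (adjusted p = 0.7) against Control. A second Ccnd1 probe gave 0.58 in Hif1a/Fh1 KO and -0.17 in Fh1 KO kidneys, and the dimmest probe -0.04 in Hif1a/Fh1 KO and -0.17 in Fh1 KO kidneys. Ccne1, cyclin E1, read 8.21, 8.26, 7.89 and 8.29 in Hif1a/Fh1 KO kidneys, 8.01, 7.89, 8.01 and 8.14 in Fh1 KO kidneys and 8.06, 7.86, 8.13 and 8.09 in Control kidneys. All 3 groups overlapped, with 0.13 in Hif1a/Fh1 KO (95% confidence interval -0.11 to 0.37) and -0.02 in Fh1 KO kidneys (95% confidence interval -0.26 to 0.22).

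Set directly against Fh1 KO kidneys, Hif1a/Fh1 KO kidneys differed in none of the 34 genes at an adjusted p under 0.05 (limma), where 0.186% of all genes were higher and 0.081% lower. At an unadjusted p under 0.05 the count was 13, where 10.8% of all genes passed in either direction. The difference was above 0 for 31 of the 34 genes, where it was above 0 for 53.09% of all genes. Its median was 0.255 beside 0.013 over all genes. For 28 of the 34 the group means fell in the order Hif1a/Fh1 KO, Fh1 KO, Control, and the share of all genes in this order was not computed. For 8 genes all Hif1a/Fh1 KO arrays exceeded all Fh1 KO arrays (3.94% of all genes did so): Ccnd1, Chaf1b, Uhrf1, Cdk1, Plk1, Prc1, Anln and Cdca3. For groups without overlap, the two-sided exact permutation test over the 70 arrangements of 4 against 4 arrays always gives p = 0.029. This is its smallest value, with no adjustment, so it adds nothing to the lack of overlap of these genes. Ccnd1 had the largest difference, 0.68 (1.60-fold, standard error 0.13, adjusted p = 0.075), then Chaf1b with 0.63 (adjusted p = 0.083), Prc1 with 0.55 (adjusted p = 0.38) and Anln with 0.54 (adjusted p = 0.23). The Ccnd1 difference passed under 5 alternative settings, at 0.68 to 0.71, but not in the main fit or most alternatives. Of these 5, 1 was the fit without Control replicate 4, an array outside this comparison. The third Ccnd1 probe gave 0.13. Against Control, the arrays did not overlap for 21 of the 34 genes in Hif1a/Fh1 KO and for 14 in Fh1 KO kidneys, always with the knockout higher. Over all genes the share without overlap and with the knockout higher was 12.2% in Hif1a/Fh1 KO and 8.08% in Fh1 KO kidneys.

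**Figure D3:**
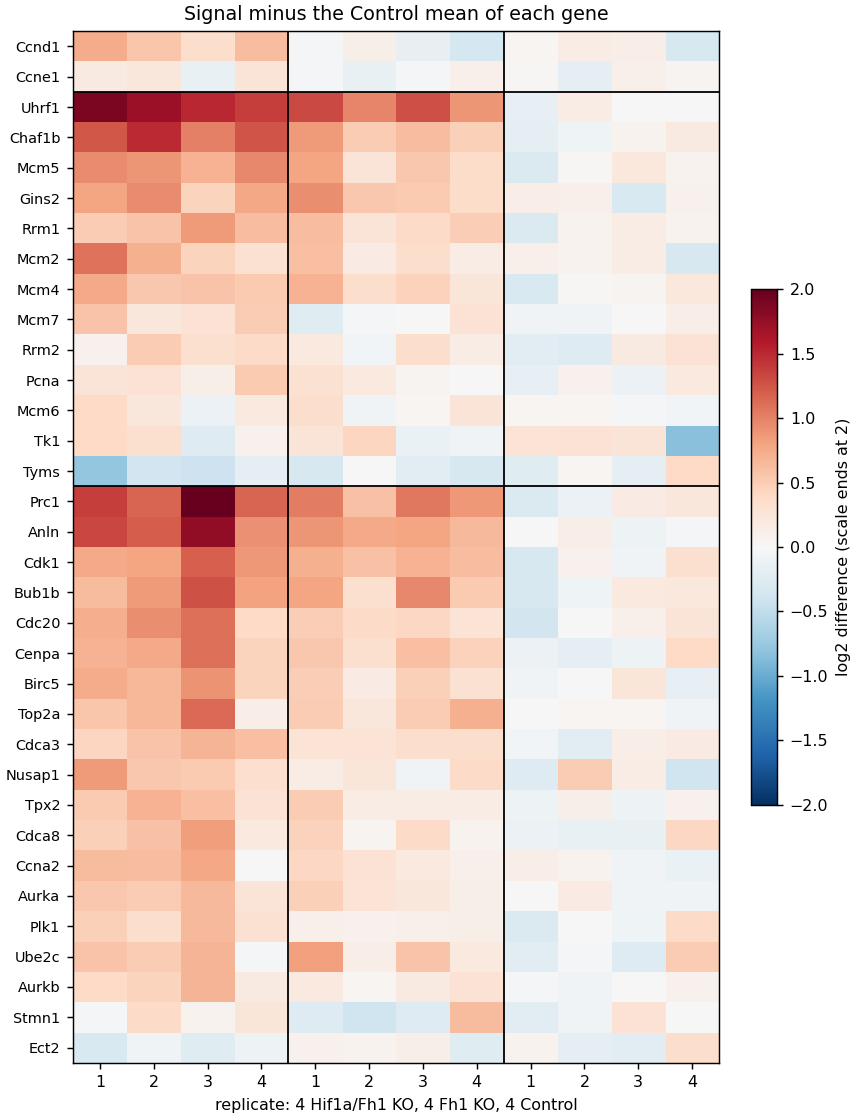
Signal of each measured gene (rows, in blocks of G1 cyclins, S-phase genes and mitotic genes) on each array (columns, replicates 1 to 4 of Hif1a/Fh1 KO, Fh1 KO and Control) minus the gene's Control mean, on the log2 scale. Red is higher, and replicate 3 of Hif1a/Fh1 KO is the darkest column for most mitotic rows, with Tyms and Ect2 as pale or blue rows.

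Within the Hif1a/Fh1 KO group, the S-phase and mitotic genes did not rank the mice alike. In Fh1 KO and Control kidneys the orders differed only among arrays with close S-phase means. The mean over the 19 mitotic genes, minus its Control mean, was 0.602, 0.642, 0.863 and 0.391 on the Hif1a/Fh1 KO arrays, 0.457, 0.239, 0.395 and 0.344 on the Fh1 KO arrays and -0.136, -0.001, 0.005 and 0.132 on the Control arrays. The mean over the 13 S-phase genes was 0.630, 0.619, 0.419 and 0.562 in Hif1a/Fh1 KO, 0.491, 0.271, 0.327 and 0.251 in Fh1 KO and -0.105, 0.037, 0.036 and 0.032 in Control kidneys. Every knockout array was above every Control array in both means. Hif1a/Fh1 KO replicate 3 was the highest of its group for 15 of the 19 mitotic genes but for 1 of the 13 S-phase genes, of which it was the lowest for 6. Hif1a/Fh1 KO replicate 4 was the lowest of its group for 13 mitotic genes and lay below Fh1 KO replicates 1 and 3 in their mean. Among Fh1 KO arrays replicate 1 was the highest for 9 mitotic and 9 S-phase genes, and replicate 2 the lowest for 13 mitotic genes. Control replicate 4 was the highest Control array for 11 mitotic genes.

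**Figure D4:**
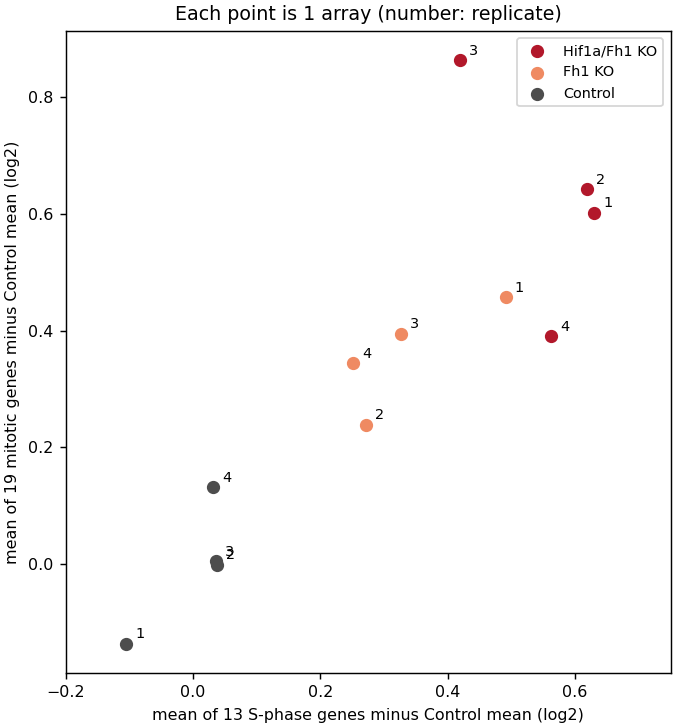
Mean of the 13 S-phase genes (x axis) and of the 19 mitotic genes (y axis) on each of the 12 arrays, minus the Control mean, on the log2 scale; numbers are replicates. Control arrays reach at most 0.132 on either axis and knockout arrays at least 0.239, with Hif1a/Fh1 KO replicate 3 highest for mitotic genes but lower than the other Hif1a/Fh1 KO arrays for S-phase genes.

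The arrays with high Xist were also the arrays with the higher mitotic mean in each group: 0.642 and 0.863 against 0.602 and 0.391 in Hif1a/Fh1 KO, 0.457 and 0.395 against 0.239 and 0.344 in Fh1 KO, and 0.132 against -0.136 to 0.005 in Control kidneys. For the S-phase mean this held in Fh1 KO kidneys alone. A fit with Xist as a covariate called 24 genes higher in Hif1a/Fh1 KO and 7 in Fh1 KO kidneys. With the 2 sets of replicates as a block 25 were called higher in Hif1a/Fh1 KO, Cdca8 and Nusap1 being added, and 8 in Fh1 KO kidneys, with Rrm1 (adjusted p = 0.049) and Bub1b (adjusted p = 0.026) added. Within replicates 1 and 2, the median change of the 34 genes was 0.62 in Hif1a/Fh1 KO (32 above 0) and 0.34 in Fh1 KO kidneys (29 above 0), and within replicates 3 and 4 it was 0.49 in Hif1a/Fh1 KO (31 above 0) and 0.22 in Fh1 KO kidneys (28 above 0). Uhrf1 changed by 1.81 and 1.44 in the 2 sets in Hif1a/Fh1 KO kidneys and by 1.16 and 1.08 in Fh1 KO kidneys, and Anln by 1.21 and 1.41 in Hif1a/Fh1 KO and by 0.76 and 0.79 in Fh1 KO kidneys. Chaf1b, with 1.50 and 1.00 in Hif1a/Fh1 KO and 0.81 and 0.42 in Fh1 KO kidneys, had the larger change in replicates 1 and 2 in both groups. With 2 arrays a group, replicates 1 and 2 alone gave 22 calls in Hif1a/Fh1 KO and 1 in Fh1 KO kidneys, and replicates 3 and 4 alone gave 2 in Hif1a/Fh1 KO and 0 in Fh1 KO kidneys. The share of all genes called higher was not computed for the Xist, block and array set fits, so these counts have no background beside them.

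All but 1 of the calls in Fh1 KO kidneys depended on single arrays. Uhrf1 kept its call in all 12 fits that left out 1 array. Anln lost it without Fh1 KO replicate 1, Fh1 KO replicate 3 or Control replicate 1. Chaf1b and Prc1 lost theirs without these or Control replicate 2, and Cdk1 without these or Control replicate 3. Gins2 kept its call in 2 of the 12 fits. In Hif1a/Fh1 KO kidneys 17 of the 23 genes kept their call in all 12 fits. The exceptions were Mcm2 (called in 7 of the 12 fits), Top2a (6), Mcm7, Ccna2 and Plk1 (3 each) and Aurkb, which lost its call without Hif1a/Fh1 KO replicate 2, Control replicate 1 or Control replicate 2. Without Hif1a/Fh1 KO replicate 3, the array with the highest mitotic mean, 19 genes were called.

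Other genes of the same processes were called in smaller shares than the 34. Of 43 other replication genes measured, 8 were higher in Hif1a/Fh1 KO and 0 in Fh1 KO kidneys, and none was lower, with medians of 0.138 in Hif1a/Fh1 KO and 0.041 in Fh1 KO kidneys. The largest changes in Hif1a/Fh1 KO kidneys were those of Dbf4 (0.76, adjusted p = 0.0075), which with the kinase Cdc7 (0.62, adjusted p = 0.018) fires replication origins, of Lig1 (0.65, adjusted p = 0.019), the ligase of Okazaki fragments, and of Ung (0.56, adjusted p = 0.028), which removes uracil from DNA. Of 41 other mitotic genes 12 were higher in Hif1a/Fh1 KO and 1 in Fh1 KO kidneys, with medians of 0.161 in Hif1a/Fh1 KO and 0.077 in Fh1 KO kidneys. Kif23, the midzone kinesin that works with Racgap1, was the gene called in both, at 1.83 in Hif1a/Fh1 KO (adjusted p = 0.007) and 1.45 in Fh1 KO kidneys (adjusted p = 0.049), with SDs of 0.79 in Hif1a/Fh1 KO, 0.61 in Fh1 KO and 0.42 in Control kidneys. Another Kif23 probe of nearly the same mean log2 signal, 10.52 beside 10.53, did not pass. It gave 0.31 in Hif1a/Fh1 KO (adjusted p = 0.14 from limma) and 0.22 in Fh1 KO kidneys (adjusted p = 0.41). The dimmer probes gave 1.12 and 0.08 in Hif1a/Fh1 KO kidneys, of which 1.12 passed (adjusted p = 0.021). In Fh1 KO kidneys they gave 0.84 and 0.07, of which none passed. The microtubule-binding protein Gtse1 (1.24, adjusted p = 0.00045), the mitotic kinase Pbk (0.88, adjusted p = 0.0033) and the checkpoint protein Mad2l1 (0.75, adjusted p = 0.0084) followed in Hif1a/Fh1 KO kidneys. The list of 45 genes was put together with results of these arrays known, so its count is no measure of replication and mitosis genes at large.

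G1 and E2F regulators were called at close to the background of all genes, which was 10.7% higher in Hif1a/Fh1 KO and 3.9% in Fh1 KO kidneys. The list of cycle inhibitors and damage-response genes was called in larger shares. Of 22 G1 and E2F regulators measured, 3 were higher in Hif1a/Fh1 KO kidneys: Myc (0.69, adjusted p = 0.004), E2f6 (0.36, adjusted p = 0.042) and Cdk4 (0.34, adjusted p = 0.042). In Fh1 KO kidneys 1 was higher, Ccnd2, or cyclin D2 (0.70, adjusted p = 0.045), which gave 0.23 in Hif1a/Fh1 KO kidneys (adjusted p = 0.43). Of 14 inhibitors and damage-response genes of the cycle measured, 8 were higher in Hif1a/Fh1 KO and 5 in Fh1 KO kidneys. Cdkn1a, the inhibitor p21, averaged 12.19 ± 0.24 in Hif1a/Fh1 KO, 11.77 ± 0.45 in Fh1 KO and 9.17 ± 0.26 in Control kidneys (SD, n = 4 each), which is 3.02 above Control in Hif1a/Fh1 KO (adjusted p = 4.2e-06) and 2.60 above it in Fh1 KO kidneys (adjusted p = 3.8e-05). Cdkn2b, the Cdk4 and Cdk6 inhibitor p15, was 2.36 higher in Hif1a/Fh1 KO (adjusted p = 8.3e-05) and 1.42 higher in Fh1 KO kidneys (adjusted p = 0.0068). Both other Cdkn1a probes passed in both groups. Gadd45a (1.14, adjusted p = 0.0011, in Hif1a/Fh1 KO) and Btg1 (0.92, adjusted p = 0.00096, and 0.55, adjusted p = 0.039, in Fh1 KO) were higher as well. Cdkn1c, the inhibitor p57, was the gene of this list that was lower, at -0.78 in Hif1a/Fh1 KO kidneys (adjusted p = 0.015), with -0.37 in Fh1 KO kidneys (adjusted p = 0.29). The inhibitors Cdkn2a (-0.13), Cdkn2c (-0.26) and Cdkn2d (0.23) were not called in Hif1a/Fh1 KO kidneys, nor in Fh1 KO kidneys.

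**Figure D5:**
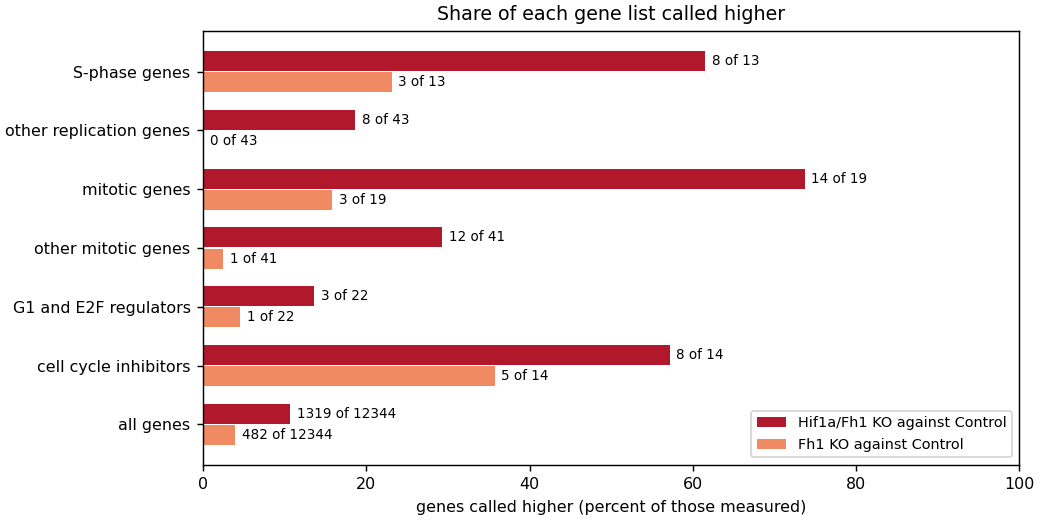
Percent of the measured genes of each list (rows) called higher than Control at an adjusted p under 0.05, in Hif1a/Fh1 KO (dark red) and Fh1 KO kidneys (orange), with the counts at the bars. In Hif1a/Fh1 KO kidneys the S-phase genes stand at 8 of 13 and the mitotic genes at 14 of 19. The other replication genes stand at 8 of 43 and the other mitotic genes at 12 of 41. The list labelled cell cycle inhibitors, which includes damage-response genes, stands at 8 of 14.

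Markers of several cell types also differed between the genotypes, some higher and some lower, and their part in the result was not tested. Kidney markers gave signal on all arrays, as the sums below show. The counts stand beside 10.7% of all genes called higher and 8.64% lower in Hif1a/Fh1 KO kidneys. In Fh1 KO kidneys these shares were 3.9% and 2.26%. Macrophage markers were higher for 10 of 12 genes in Hif1a/Fh1 KO and 7 in Fh1 KO kidneys, and their summed linear signal was 28080 to 34880 in Hif1a/Fh1 KO, 24140 to 37230 in Fh1 KO and 14290 to 19750 in Control kidneys. Markers of injured tubules were higher for 7 of 7 genes in Hif1a/Fh1 KO and 4 in Fh1 KO kidneys, with sums of 59660 to 63280 in Hif1a/Fh1 KO, 25210 to 43270 in Fh1 KO and 11230 to 14050 in Control kidneys. Markers of collecting duct principal cells were higher for 6 of 6 genes in Hif1a/Fh1 KO and 2 in Fh1 KO kidneys, with sums of 62200 to 77270 in Hif1a/Fh1 KO, 34450 to 47160 in Fh1 KO and 22500 to 26140 in Control kidneys. Proximal tubule markers were lower for 6 of 9 genes in Hif1a/Fh1 KO and 3 in Fh1 KO kidneys, with sums of 209500 to 331300 in Hif1a/Fh1 KO, 250700 to 336700 in Fh1 KO and 356700 to 467300 in Control kidneys. Fibroblast and matrix markers were higher for 4 of 11 genes in each knockout group, with sums of 32410 to 54880 in Hif1a/Fh1 KO, 33540 to 46690 in Fh1 KO and 18920 to 31750 in Control kidneys. Lymphocyte markers were higher for 1 of 7 genes in Hif1a/Fh1 KO and 0 in Fh1 KO kidneys, with sums of 1925 to 3364 in Hif1a/Fh1 KO, 2316 to 2760 in Fh1 KO and 1971 to 2308 in Control kidneys. Thick ascending limb markers were lower for 2 of 4 genes in each knockout group, and distal convoluted tubule markers for 2 of 2 in Hif1a/Fh1 KO and 1 in Fh1 KO kidneys. Intercalated cell markers were lower for 2 of 4 genes in Hif1a/Fh1 KO and 1 in Fh1 KO kidneys, and higher for 1 in each. Endothelial markers were lower for 1 of 6 genes in Hif1a/Fh1 KO and higher for 1 in Fh1 KO kidneys, and 0 of 2 red cell markers passed in either group.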

How the data were processed

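Total RNA was hybridised to Illumina MouseWG-6 BeadChips. GenomeStudio was used for signal extraction and GeneSpring GX for normalization to the 75th percentile, as the study's methods state. The authors deposited 1 normalized log2 signal per probe and array, which was used throughout. Which probes were kept for deposit is not stated. A second table of 24 columns, with signals that were not normalized and detection p-values, was not used because its column names match no sample. Precision is limited by the 4 arrays per group, and signal over background is unknown.

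A shift of at most 0.04 brought the 75th percentiles of the arrays together. The 3 groups, taken from the genotype labels, were fitted together with limma 3.58.1, whose eBayes step used a trend of variance on signal, under R 4.3.3. Benjamini-Hochberg adjustment covered the 23863 probes. A gene was called at an adjusted p under 0.05 by its brightest probe. Fold changes of dim probes are compressed by background. Of the probes 19906 carry 1 gene symbol, 9 several, and 3948 are not listed in the platform annotation. Exact permutation tests over 70 arrangements of arrays were two-sided. The members, the other gene and marker lists and the motifs were chosen with earlier results of these data known. Every member is accounted for. Values on each array are given for the 14 called members of smallest adjusted p and for Top2a, Cdk1, Pcna, Mcm2, Ccnd1 and Ccne1. Up to 4 called genes with the largest changes are named of each other list. Mki67 was also to be given but has no named probe. Cdkn1c, Cdkn2a, Cdkn2c and Cdkn2d were named after their values were seen. Promoter windows came from RefSeq (GRCm38.p6). The alternatives were other scalings and variance models, array weights (statmod 1.5.0), a plain test without moderation, fits of the 2 groups compared, a replicate or array set block, each array set alone, Xist as a covariate, stricter thresholds, leaving out 1 array at a time, and any probe in place of the brightest. The fit was tested on simulated data.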

Additional observations from a re-analysis of the deposited data

Results flagged for a closer look

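In 8 of the 102 groups of 4 arrays formed by the 34 genes and 3 genotypes, the highest or the lowest array stood far from the other 3 by Dixon's test, which chance alone does in about 1 in 20 groups. Control replicate 4 was that array 3 times. It read 8.18 for Tk1, where the other Control arrays read 9.28 to 9.31, and 8.58 for Cdca8 (others 8.02 to 8.06) and 10.3 for Cenpa (others 9.7 to 9.8). Control replicate 3 read 8.05 for Gins2, below the 8.44 to 8.49 of the other Control arrays. Among the Fh1 KO arrays, replicate 4 read 12 for Stmn1 (others 10.97 to 11.11) and 7.69 for Ect2 (others 8.0 to 8.06), and replicate 1 read 7.97 for Tpx2, where the other 3 were at 7.62. Hif1a/Fh1 KO replicate 1 read 11.64 for Mcm4, above the 11.41 to 11.45 of the others.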

How the results depend on the processing

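No called fold change of a single gene turned its direction under an alternative that kept its brightest probe, while dimmer probes of Mcm7 (-0.07) and Ccnd1 (-0.04) were below 0 in Hif1a/Fh1 KO kidneys. Uncalled values near 0 did under some, such as those of Ccnd1, Ccne1, Mcm7 and Ect2 in Fh1 KO kidneys and of Tk1 in all comparisons. Of the values of single genes across alternatives 2281 kept their side of the threshold, 121 lost it and 46 gained it. The count of genes higher in Hif1a/Fh1 KO than in Control kidneys, 23, was 17 to 23 in the fits without 1 array, 2 in replicates 3 and 4 alone, 4 with a fold of at least 2 and 14 at an adjusted p under 0.01. The count in Fh1 KO kidneys, 6, was 1 to 7 without 1 array: 1 without Fh1 KO replicate 1, Fh1 KO replicate 3 or Control replicate 1, and 3 without Control replicate 2. It was 15 with array weights, 1 in replicates 1 and 2 alone, 0 in replicates 3 and 4 alone, 1 with a fold of at least 2 and 1 at an adjusted p under 0.01. Between Hif1a/Fh1 KO and Fh1 KO kidneys the count of higher genes was 1 (Ccnd1) with quantile normalization, with the array set as a block and with Xist as a covariate, 2 with array weights (Ccnd1 and Chaf1b), and 0 to 1 without 1 array (1, Ccnd1, without Control replicate 4). The fits of array sets have fewer arrays, and the cause of the other changes was not tested. For the alternatives the share of all genes called higher was not computed. Of 12 pairs of same-numbered arrays, 6 had deviations that correlated above 0.1 (all pairs, -0.309 to 0.499), among them replicates 1, 3 and 4 of Hif1a/Fh1 KO and Fh1 KO (0.195, 0.461 and 0.282), and 6 were best matched by their own number. The labels tie no numbers to litters or days and not every pair correlated, so the numbers were not used as pairs. With the replicate block 7 genes were higher in Fh1 KO, and 22 higher and 1 lower (Tyms) in Hif1a/Fh1 KO kidneys. Over the alternatives the median change of S-phase genes in Hif1a/Fh1 KO kidneys was 0.405 to 0.654 and that of mitotic genes 0.505 to 0.643, and in Fh1 KO kidneys 0.213 to 0.371 and 0.246 to 0.366. Depth has no counterpart on these arrays, and the dim mitotic probes named above are the least certain values.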
